A study of Mus musculus with 2 samples.

Results

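The 8 genes described here encode small leucine-rich proteoglycans of the extracellular matrix: decorin (*Dcn*), lumican (*Lum*), biglycan (*Bgn*), fibromodulin (*Fmod*), osteoglycin (*Ogn*), asporin (*Aspn*), prolargin (*Prelp*) and osteomodulin (*Omd*). They were chosen by name, and all 8 were found among the 32285 genes listed for 2 single-cell RNA-seq libraries of mouse Lewis lung carcinoma (LLC) tumors, of which 23372 genes had at least 1 unique molecular identifier (UMI, the tag that counts a captured transcript) in the cells kept. LLC is a mouse lung cancer cell line that forms tumors in C57BL/6 mice. The sGC Ctr library came from *Gucy1b1* flox/flox mice, and the sGC ∆PC library from mice that also carried Cspg4-CreERT2 (given in the labels as Cspg4-CreERT2::Gucyc1b1 flox/flox), in which tamoxifen removes *Gucy1b1*, a subunit of the nitric oxide receptor soluble guanylate cyclase (sGC), from cells that express *Cspg4* (NG2), mainly pericytes. The floxed allele, the C57BL/6 strain and tamoxifen (5 doses at 4 weeks of age) were common to both groups. LLC cells were inoculated under the skin at 8 weeks of age and the tumors were taken 2 weeks later, with 3 tumors pooled in each library. There was thus 1 library per condition: the condition and the library cannot be told apart, no test between the conditions was possible, and every interval given is a 95% interval for counting error only.

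Small leucine-rich proteoglycans are secreted proteins built around tandem leucine-rich repeats, and most carry chondroitin/dermatan sulfate or keratan sulfate chains. They bind collagen fibrils and set fibril diameter and spacing, and several also bind growth factors of the TGF-β family or cell-surface receptors. Fibroblasts are their best-known source in connective tissue. Decorin, biglycan and asporin form class I of the family, lumican, fibromodulin, prolargin and osteomodulin class II, and osteoglycin belongs to class III.

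After filtering, 12220 of 15007 barcodes were kept in the sGC Ctr library and 22498 of 25631 in the sGC ∆PC library, with a median of 35776.5 and 8685 UMIs per cell and with 98 kept barcodes in common. Cells were clustered without the small leucine-rich proteoglycan genes, and clusters were named from fixed markers that hold no member of the family. Levels are given as counts per 1e+06 UMIs of a class (CPM). Each UMI marks a captured 3′ end, so the levels of different genes need no correction for transcript length. The cancer-cell RNA share of a cell was defined as the summed CPM of *Krt18*, *Krt8*, *Rhox5* and *Hmga2* relative to that in the cancer cells of its library. The 186 and 899 fibroblasts had a share of 54.1% and 71.3%, and the 53 and 216 pericytes of 62.8% and 66.3%, in the sGC Ctr and sGC ∆PC libraries. The fibroblasts and pericytes with a share under 25%, called low-share cells here, are therefore given beside the whole class. They were 138 and 239 fibroblasts (with 3 and 69 fibroblasts between 20% and 30%, around the limit) and 39 and 42 pericytes. All 10 fibroblast markers were found in the low-share fibroblasts (summed level 48167 and 41691 CPM), and all 10 pericyte markers in the low-share pericytes (10995 and 9250 CPM). The 10 macrophage markers were also found in the low-share fibroblasts, at 999.8 and 2005 CPM. All 4 smooth muscle markers (*Myh11*, *Acta2*, *Tagln* and *Cnn1*) were also found in the low-share pericytes, at 4785 and 3738 CPM (cell medians 1228 and 678 CPM). Smooth muscle cells were not separated from this class. In low-share pericytes *Gucy1b1* was at 122 CPM (59 UMIs) in the sGC Ctr library and 38.1 CPM (13 UMIs) in the sGC ∆PC library, a log2 ratio of −1.68 (−2.67 to −0.80). *Cspg4*, whose promoter drives the Cre recombinase, was at 161 and 64.4 CPM in these pericytes.

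The members lie in 4 places of the mouse genome (GRCm38, which is mm10), and several are neighbors. *Dcn* (chr10:97479609-97518143, plus strand) and *Lum* (chr10:97565128-97572703, plus strand) are 46984 bases apart. *Aspn* (chr13:49544443-49567565), *Omd* (chr13:49582462-49592822) and *Ogn* (chr13:49608046-49624501) follow each other on the plus strand with gaps of 14896 and 15223 bases. *Prelp* (chr1:133910304-133921414, minus strand) and *Fmod* (chr1:134037254-134048277, plus strand) are 115839 bases apart, and *Bgn* lies at chrX:73483602-73495933 on the plus strand. The promoters of *Aspn*, *Ogn* and *Bgn* are shown as examples: most *Aspn* and *Ogn* transcripts were in cancer cells and most *Bgn* transcripts in fibroblasts, and of these classes and the pericytes *Aspn* had its highest level in low-share pericytes. Each run is the 250 bases before the gene's RefSeq start on GRCm38.p6, 5′ to 3′, at chr13:49544193-49544442, chr13:49607765-49608014 and chrX:73483351-73483600, all on the plus strand. Capitals mark a TATA box (TATAAA), a GC box (GGGCGG) or a CCAAT box (CCAAT) on either strand.
Aspn promoter: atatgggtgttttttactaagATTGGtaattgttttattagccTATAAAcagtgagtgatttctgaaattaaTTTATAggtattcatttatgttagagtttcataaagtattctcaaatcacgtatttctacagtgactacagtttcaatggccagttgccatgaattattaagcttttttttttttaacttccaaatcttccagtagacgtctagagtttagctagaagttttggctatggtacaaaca
Ogn promoter: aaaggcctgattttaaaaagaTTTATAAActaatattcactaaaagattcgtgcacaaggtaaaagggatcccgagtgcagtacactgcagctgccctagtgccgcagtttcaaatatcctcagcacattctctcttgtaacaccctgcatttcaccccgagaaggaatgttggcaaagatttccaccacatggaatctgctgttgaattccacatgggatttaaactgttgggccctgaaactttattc
Bgn promoter: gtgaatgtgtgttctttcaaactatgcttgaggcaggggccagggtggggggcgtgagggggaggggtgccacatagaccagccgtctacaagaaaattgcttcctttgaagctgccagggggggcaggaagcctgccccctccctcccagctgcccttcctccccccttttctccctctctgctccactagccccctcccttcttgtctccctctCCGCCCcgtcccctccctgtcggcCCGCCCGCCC

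The *Aspn* promoter held 2 TATA boxes and 1 CCAAT box, and the *Ogn* promoter 2 TATA boxes that overlap on opposite strands. The *Bgn* promoter held 3 GC boxes, of which a pair overlap, and no TATA box. GC content was 64.4% for *Bgn*, above the median of 52.4% over 32536 mouse promoters, and lower for *Ogn* (42%) and *Aspn* (30%). TATAAA was present in 12.3% of these promoters, GGGCGG in 33.0% and CCAAT in 33.8%, so that none of the 3 motifs is rare. The examples do not stand for their source classes. *Prelp*, also mostly in fibroblasts, had 0 GC boxes and 0 TATA boxes, and *Omd*, mostly in cancer cells, had 0 of each motif. These matches describe letters at any position in the window, not only near the gene start, and say nothing of a factor's binding.

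To find which cells held the transcripts, the UMIs of each member were summed per class. The family made up 0.0645% of all UMIs in the sGC Ctr library (307217 UMIs) and 0.0691% in the sGC ∆PC library (284540 UMIs), in widely unequal parts. *Dcn* had 181755 and 158380 UMIs and *Lum* 95802 and 101066 UMIs. *Bgn* followed with 17418 and 17604 UMIs, *Ogn* with 7384 and 3783 and *Aspn* with 4192 and 3166. *Prelp* had 536 and 426 UMIs, *Omd* 114 and 112 and *Fmod* only 16 and 3. The order of the 8 members was the same in both libraries.

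Class I genes were highest in stromal cells, each with its own balance between fibroblasts and pericytes. *Dcn*, which binds type I collagen fibrils and TGF-β, reached 5013 CPM (4934 to 5094) in low-share fibroblasts of the sGC Ctr library and 5221 CPM (5132 to 5311) in those of the sGC ∆PC library. That was 13.4-fold and 14.1-fold its level in cancer cells, which held 374 and 370.5 CPM. *Bgn*, the closest relative of decorin and a ligand of Toll-like receptors when released from the matrix, was at 3633 CPM (3566 to 3702) and 3209 CPM (3139 to 3280) in low-share fibroblasts. Its level in cancer cells was 6.02 and 8.54 CPM, below that of T cells and granulocytes (17.3 and 20.5 CPM), so no fold over cancer cells is given. *Aspn*, which has an aspartate-rich N terminus and usually carries no chain, was higher in low-share pericytes (473 and 340 CPM) than in low-share fibroblasts (102 and 50.9 CPM), by 4.65-fold and 6.67-fold.

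Of the 5 members with at least 50 UMIs over these 2 classes in both libraries, only *Aspn* was at least 2-fold higher in pericytes than in fibroblasts, as were 7.5% and 6.13% of all genes compared. The other 4 were at least 2-fold lower in pericytes, as were 12.9% and 12.8% of all genes. The log2 ratio of pericytes to fibroblasts was −1.31 and −1.37 for *Bgn*, −2.32 and −2.57 for *Dcn*, −5.03 and −3.76 for *Lum*, and −3.51 and −3.62 for *Prelp*. The *Dcn* values rest in part on 1 pericyte of each library, without which the pericyte level was 664 and 134 CPM. Against cancer cells, pericytes held 57.1-fold and 47.3-fold more *Aspn*, in comparisons where 10.9% and 8.66% of genes were at least 2-fold higher. *Aspn* and *Bgn* were found in most low-share pericytes of both libraries.

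Of the class II genes, *Lum* and *Prelp* both had their highest class level in low-share fibroblasts but differed widely in breadth. *Lum*, a keratan sulfate proteoglycan known from the cornea, was at 1213 CPM (1173 to 1253) and 1107 CPM (1066 to 1150) in low-share fibroblasts and at 209.5 and 257 CPM in cancer cells. *Prelp*, which binds heparan sulfate and collagen at basement membranes, was at 141 CPM (128 to 155) and 71.8 CPM (61.7 to 83.1) in low-share fibroblasts. Its level in cancer cells was 0.0689 and 0.0918 CPM, 28 and 30 UMIs in all, below that of T cells and granulocytes (1.33 and 1.28 CPM). *Dcn*, *Lum*, *Bgn*, *Aspn* and *Prelp* were each at least 2-fold higher in low-share fibroblasts than in cancer cells of both libraries. For *Aspn* the levels were 102 and 50.9 CPM in low-share fibroblasts and 8.28 and 7.18 CPM in cancer cells. At least 2-fold more in fibroblasts than in cancer cells was seen for 14.7% and 13.6% of all genes compared. *Fmod*, which controls early fibril assembly, was found in 4 low-share fibroblasts of the sGC Ctr library (10 UMIs, of which 70% lay in 1 cell) and in none of the sGC ∆PC library. Its level was 3.34 CPM in these fibroblasts and 12.4 CPM in the low-share pericytes of the sGC Ctr library (6 UMIs, of which 5 lay in 1 cell), and 2.93 CPM in those of the sGC ∆PC library (1 UMI). *Fmod* had 0 UMIs in the cancer cells of either library. *Omd*, known from bone, had 105 and 88 of its UMIs in cancer cells, at 0.258 and 0.269 CPM. Its level was 1.00 and 2.81 CPM in low-share fibroblasts (3 and 7 UMIs) and 0.667 and 0 CPM in T cells and granulocytes (1 and 0 UMIs), so these few UMIs do not show the cancer-cell level to be above background.

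*Ogn*, the class III member, differed less between fibroblasts and cancer cells. It was at 47.0 CPM (39.6 to 55.5) in low-share fibroblasts and 16.5 CPM (16.1 to 16.9) in cancer cells of the sGC Ctr library, a 2.85-fold difference. In the sGC ∆PC library the levels were 11.6 CPM (7.79 to 16.7) and 10.0 CPM (9.68 to 10.4), with a log2 ratio of 0.21 (−0.37 to 0.74) that does not separate the classes beyond counting error. Low-share pericytes held 1 and 3 *Ogn* UMIs.

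T cells and granulocytes, which are not known to make these proteins, gave the level that free RNA can leave in droplets of low depth (median 2142 and 2303 UMIs). In these cells *Dcn* was at 70.7 and 130.5 CPM, *Lum* at 74.0 and 154 CPM and *Bgn* at 17.3 and 20.5 CPM. The levels of the others rest on few UMIs. *Ogn* was at 4.00 and 2.13 CPM (6 and 5 UMIs), *Aspn* at 3.33 and 3.41 CPM (5 and 8 UMIs) and *Prelp* at 1.33 and 1.28 CPM (2 and 3 UMIs). The *Bgn* level of cancer cells as a whole and the *Lum* level of low-share pericytes (37.2 and 82.0 CPM) lie below it. The *Dcn* and *Lum* levels of macrophages (32.2 and 51.5 CPM, 26.4 and 45.5 CPM) do so as well. These classes were deeper (median 50588 and 15095 UMIs in cancer cells, 11224 and 7034 in low-share pericytes and 11989 and 10803 in macrophages). The same free RNA makes up less of a deep cell's CPM, so these levels are not shown to be background. The ratio of *Dcn* to *Lum* was 0.955 and 0.845 in T cells and granulocytes, 1.79 and 1.44 in cancer cells and 4.13 and 4.71 in low-share fibroblasts, so the balance of the pair differed between classes and not only the amount. Per UMI of *Aspn* there were 49.3 and 102 UMIs of *Dcn* in low-share fibroblasts and 2.12 and 2.59 in low-share pericytes, where 1 cell held 35.3% and 86.0% of the *Dcn* UMIs.

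**Figure D1:**
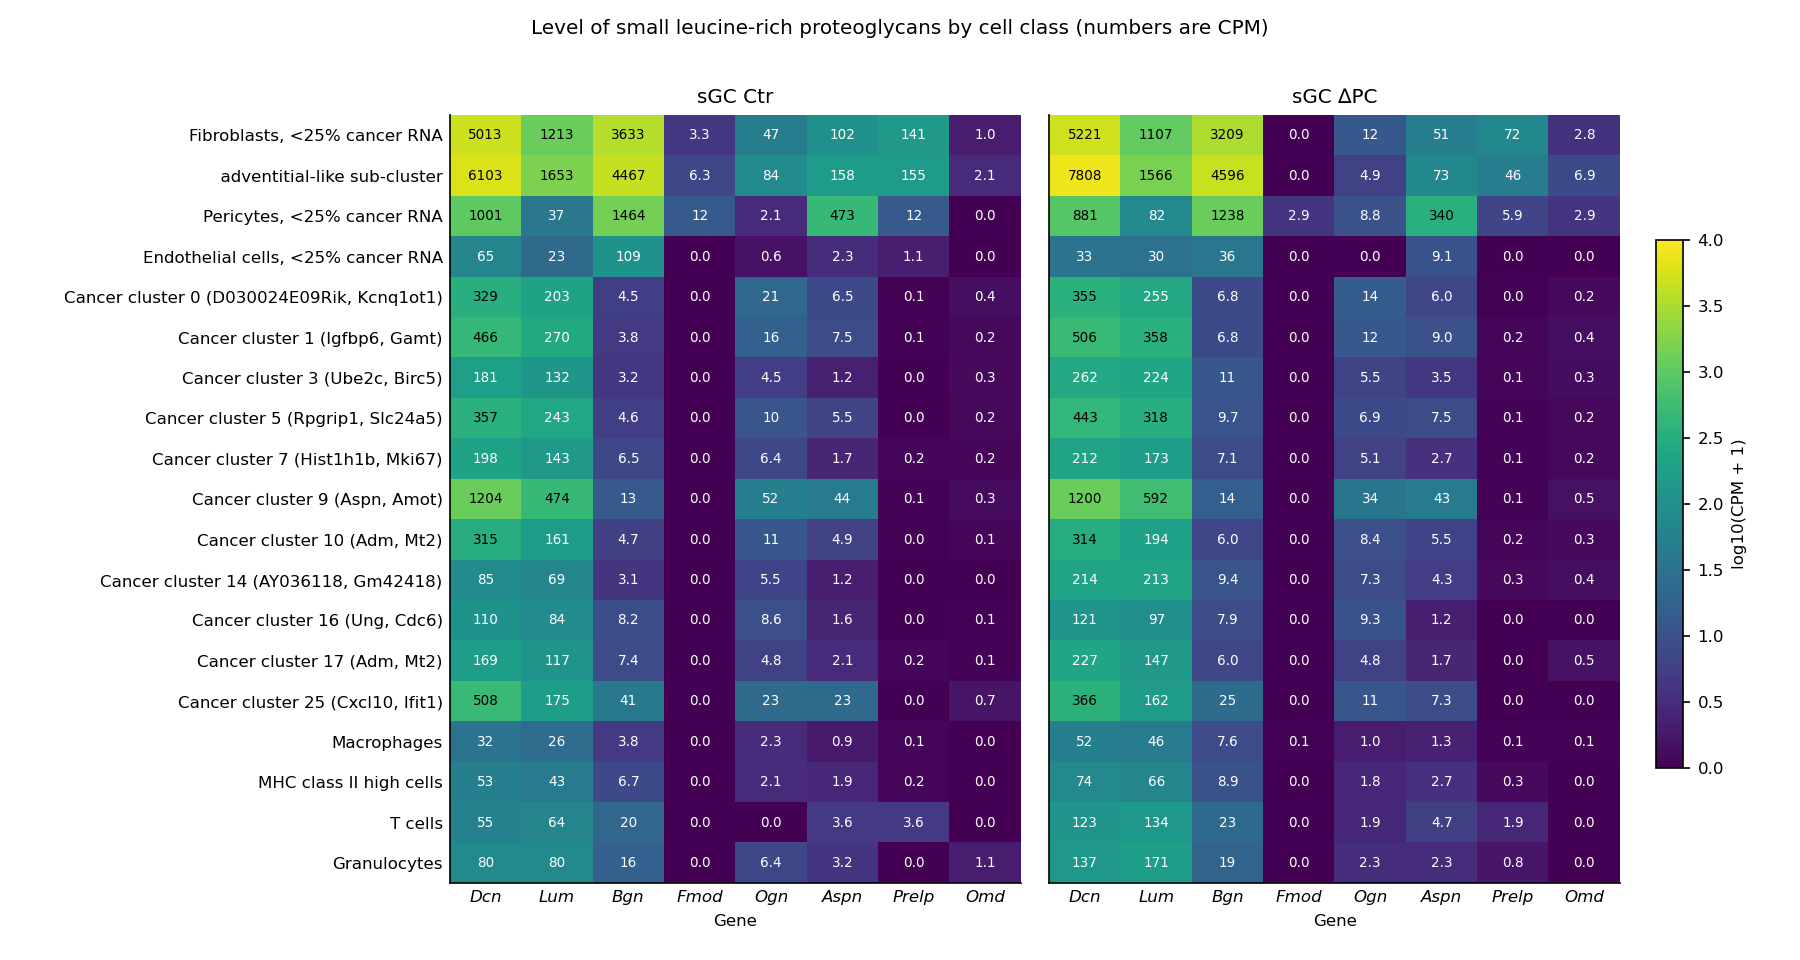
Level of each member (columns) in each cell class (rows) in CPM, with the color on a log scale, in the sGC Ctr library (left) and the sGC ∆PC library (right). *Dcn* and *Bgn* are highest in fibroblasts with a cancer-cell RNA share under 25%, *Aspn* in pericytes with such a share, and *Prelp* is highest in fibroblasts of each library.

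For *Dcn*, *Lum* and *Aspn* the class with the highest level was not the class with most of the transcripts. For *Bgn* and *Prelp* both were the fibroblasts. Cancer cells were 7224 and 11413 of the cells (59.1% and 50.7%). Being deep, they held 406186751 of 476464534 and 326897598 of 412064152 UMIs of all genes. They held 83.6% and 76.5% of all *Dcn* UMIs and 88.8% and 83.0% of all *Lum* UMIs. They also held 90.9% and 86.6% of the *Ogn* UMIs, 80.2% and 74.1% of the *Aspn* UMIs and 92.1% and 78.6% of the *Omd* UMIs. Fibroblasts, 1.52% and 4.00% of the cells, held 78.4% and 75.0% of the *Bgn* UMIs and 91.6% and 88.7% of the *Prelp* UMIs, but only 10.7% and 14.7% of the *Dcn* UMIs and 5.03% and 6.02% of the *Lum* UMIs. Pericytes held 5.99% and 6.51% of the *Aspn* UMIs and 4.73% and 4.36% of the *Bgn* UMIs. By source, *Bgn* and *Prelp* thus lay mostly in fibroblasts. The 5 other genes named here had most of their UMIs in cancer cells, as had all genes together. Per UMI, *Dcn* (374 and 370.5 CPM) and *Aspn* (8.28 and 7.18 CPM) were slightly lower in cancer cells than over all cells (381.5 and 384 CPM, 8.80 and 7.68 CPM). *Lum* (209.5 and 257 against 201 and 245 CPM) and *Ogn* (16.5 and 10.0 against 15.5 and 9.18 CPM) were slightly higher. *Omd* differed little (0.26 and 0.27 against 0.24 and 0.27 CPM). The 9 clusters left unnamed (1637 and 6447 cells) held 4.39% and 5.79% of the *Dcn* UMIs.

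**Figure D2:**
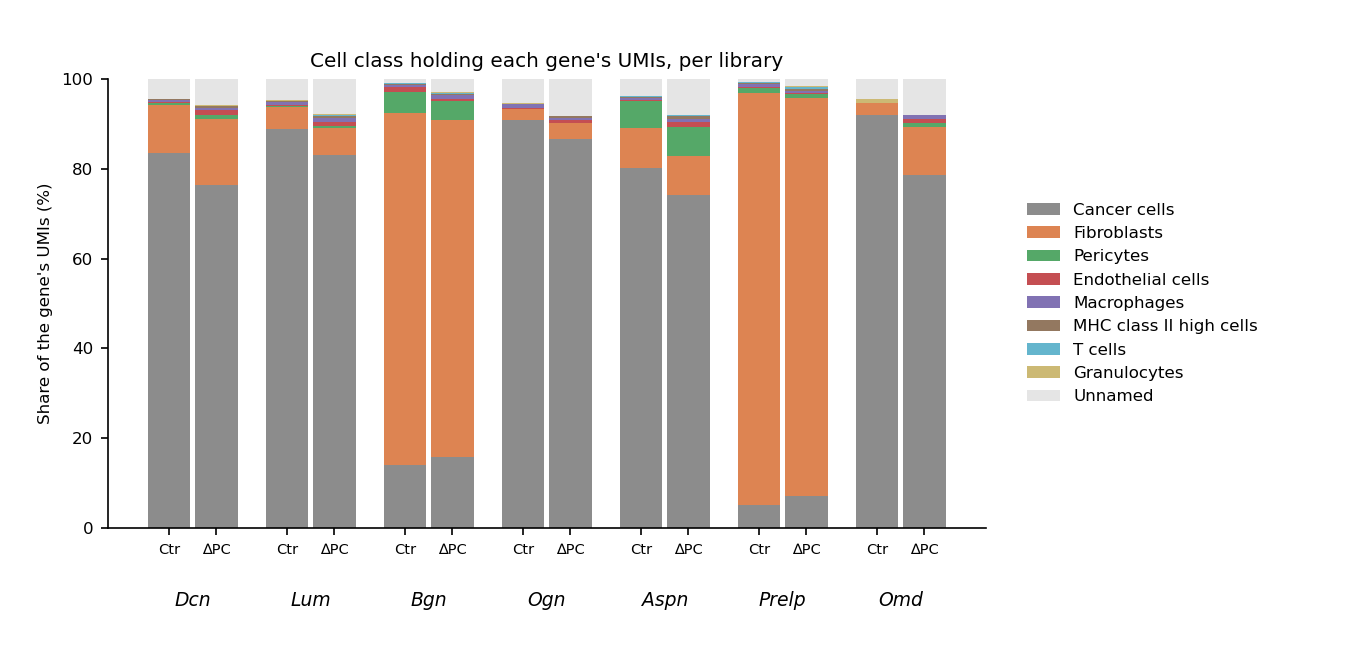
Share of each member's UMIs (%) that lie in each cell class, as stacked bars, for the sGC Ctr library and the sGC ∆PC library. Cancer cells hold 83.6% and 76.5% of *Dcn* UMIs, whereas fibroblasts hold 78.4% and 75.0% of *Bgn* UMIs.

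Within the cancer cells the family was most abundant in 1 cluster, a mesenchymal state marked by *Prg4* and *Ptn* (1030 cells in the sGC Ctr library and 438 in the sGC ∆PC library). *Aspn* was its leading gene although no member of the family was used in the clustering. The 4 cancer-cell markers summed to 1071 and 1196 CPM in this cluster, and the 10 fibroblast markers to 2739 and 2964 CPM. The fibroblast markers were at 1041 CPM in all cancer cells of the sGC Ctr library and at 48167 and 41691 CPM in low-share fibroblasts. *Dcn* was at 1204 and 1200.2 CPM in this cluster, *Lum* at 474 and 592 CPM (cell medians 757 and 846 CPM for *Dcn*, 171 and 289 CPM for *Lum*), *Ogn* at 52.0 and 34.3 CPM and *Aspn* at 43.8 and 43.1 CPM. *Bgn*, at 12.7 and 14.4 CPM, was not above its CPM in T cells and granulocytes. Those cells were far shallower (median 2142 and 2303 UMIs, against 35491 and 41050.5 in this cluster). The comparison thus does not show whether *Bgn* was above background here. The cluster was 8.43% and 1.95% of the cells kept, with 38183797 of 476464534 and 17801010 of 412064152 UMIs of all genes. It held 25.3% and 13.5% of all *Dcn* UMIs, 26.9% and 16.1% of all *Ogn* UMIs and 39.9% and 24.3% of all *Aspn* UMIs. Among the other cancer clusters *Dcn* was at 110.2 and 121 CPM in the cells with G1/S genes and at 466 and 506 CPM in the cluster led by *Igfbp6*, *Gamt* and *Clu*. The small cluster led by *Cxcl10* and *Ifit1*, genes of the interferon response (60 and 226 cells), held 508 and 366 CPM of *Dcn*. Its *Bgn* level of 40.9 CPM (33.9 to 48.9) and 24.9 CPM (20.5 to 30.0) was the highest of the cancer clusters and, in the sGC Ctr library, above that of T cells and granulocytes (log2 ratio 1.24, 0.62 to 1.91), which in the sGC ∆PC library it did not exceed beyond counting error (0.28, −0.22 to 0.80). The *Bgn* UMIs of this *Cxcl10* cluster lay in 12 of its 60 and 26 of its 226 cells, so most of its cells had none. The shallow cluster led by *AY036118* and *Gm42418* held 85.3 and 214 CPM of *Dcn*. The *Kcnq1ot1* high cluster held 329 and 355 CPM of *Dcn*, the hypoxic clusters 315 and 314 CPM and 169 and 227 CPM, and the clusters with G2/M genes 181 and 262 CPM and 198 and 212 CPM. *Aspn* was at 1.58 and 1.18 CPM in the G1/S cluster, against 3.33 and 3.41 CPM (5 and 8 UMIs) in T cells and granulocytes. The sGC Ctr value lies inside the counting interval of those cells (1.08 to 7.78 CPM). The G1/S cluster was also far deeper (median 61824 and 53358 UMIs), so the comparison does not show whether *Aspn* was above background there.

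*Dcn* and *Lum* were often found in the same cells of the mesenchymal cancer cluster. Cells were thinned to 2000 UMIs, and 245 of 597 and 342 of 870 T cells and granulocytes with fewer were left out. No cell of this cluster was left out. After thinning, 67.5% and 73.3% of the cells of this cluster had a *Dcn* UMI (96.9% and 97.9% unthinned). The share was 12.5% and 22.2% of the 352 and 528 T cells and granulocytes kept (91 of 597 and 229 of 870 cells unthinned). *Lum* was present in 46.6% and 51.4% of the cluster's cells with a *Dcn* UMI and in 21.8% and 21.4% of those without. In T cells and granulocytes the values were 9.09% and 23.9% with *Dcn* and 13.6% and 25.3% without. In thinned low-share fibroblasts 73.1% and 72.9% of the cells with *Dcn* also had *Lum*.

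Low-share fibroblasts split into 6 sub-clusters, which were also found without the family's genes. The adventitial-like sub-cluster (led by *Igfbp5*, *Mgp* and *Pi16*, with 5 of its 6 markers, and with 70 cells in the sGC Ctr library and 49 in the sGC ∆PC library) had *Dcn* at 6103 and 7808 CPM, *Lum* at 1653 and 1566 CPM and *Bgn* at 4467 and 4596 CPM. Every cell of it had *Dcn* and *Bgn* UMIs. The contractile sub-cluster (8 and 17 cells) had *Dcn* at 5558 and 3976 CPM, *Bgn* at 5302 and 4411 CPM and *Aspn* at 131 and 186 CPM. These *Aspn* values rest on 23 UMIs in 4 of 8 cells and 15 UMIs in 2 of 17 cells. The sub-cluster led by *Serpinb2*, *Pgf* and *Ptgs2* (30 and 45 cells) had less of most members, with *Dcn* at 4054 and 4026 CPM, *Lum* at 573 and 732 CPM and *Aspn* at 10.2 and 16.7 CPM. *Prelp* did not follow this order. It was at 156 and 91.3 CPM there, and at 155 and 46.2 CPM in the adventitial-like cells. The proliferating sub-cluster (7 and 6 cells) held *Dcn* at 3809 and 2797 CPM, and a sub-cluster with macrophage genes (10 and 42 cells) at 3392 and 2622 CPM. A shallow sub-cluster led by *Apoe*, *Ifitm1* and *Dkk2* (13 and 80 cells) held *Dcn* at 3716 and 3212 CPM but *Bgn* at only 1031 and 1582 CPM.

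In single low-share pericytes *Bgn* and *Aspn* were widespread and *Dcn* was not. In the sGC Ctr library *Bgn* had a UMI in 39 of 39 cells, with a lowest value of 335 CPM, a median of 1468 CPM and a highest of 3199 CPM. In the sGC ∆PC library it was found in 31 of 42 cells, with a lowest value of 0, a median of 743 CPM and a highest of 2814 CPM. *Aspn* had a UMI in 35 of 39 and 25 of 42 cells, with medians of 502 and 254 CPM. *Dcn* had a median of 0 in both libraries, and 35.3% and 86.0% of its UMIs in these pericytes lay in 1 cell. Its class level of 1001 and 881 CPM dropped to 664 and 134 CPM without that cell of each library. The pericyte values of *Bgn* and *Aspn* overlapped widely between the libraries. The median depth of these cells was 11224 UMIs in the sGC Ctr library and 7034 in the sGC ∆PC library.

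**Figure D3:**
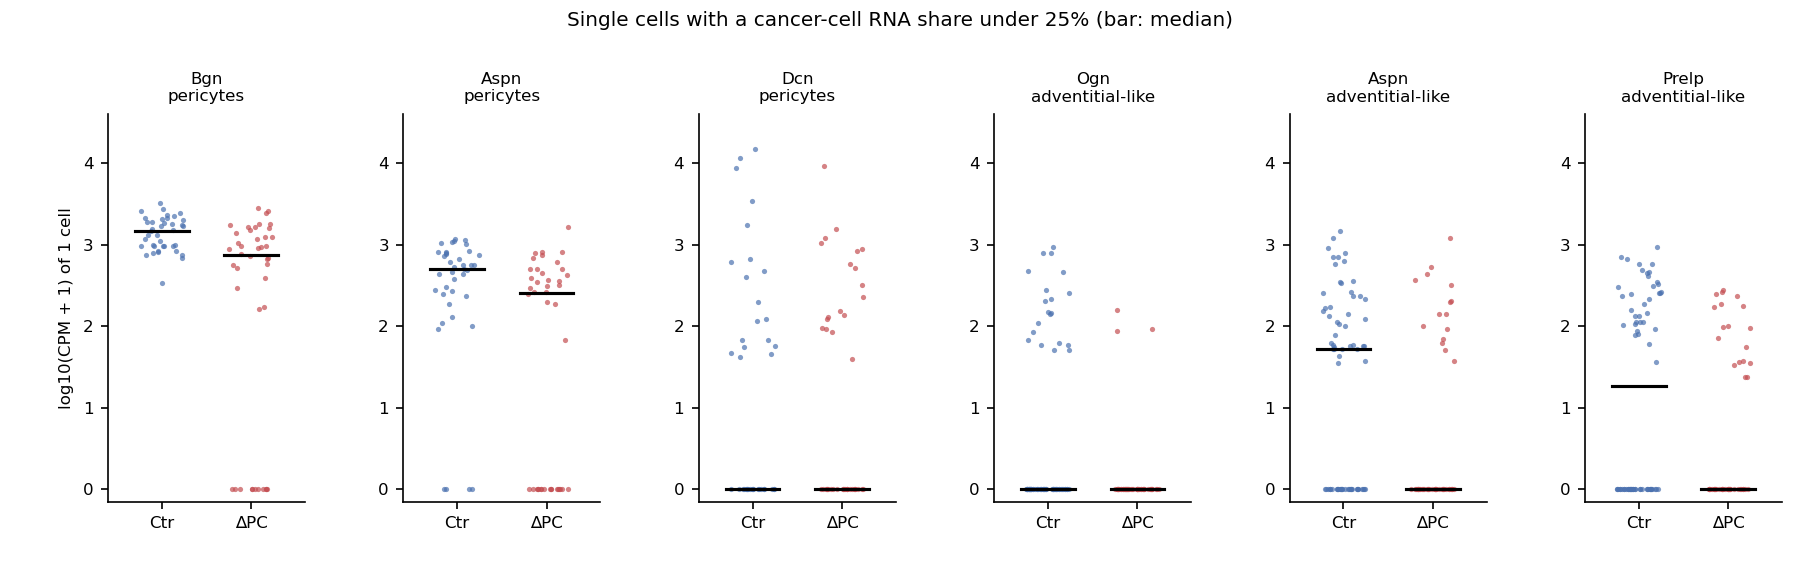
Values of single cells on a log10(CPM + 1) scale for *Bgn*, *Aspn* and *Dcn* in low-share pericytes and for *Ogn*, *Aspn* and *Prelp* in adventitial-like fibroblasts, with 1 point per cell and a bar at the median. *Bgn* is above 0 in all 39 pericytes of the sGC Ctr library and in 31 of 42 of the sGC ∆PC library, and *Ogn* in 20 of 70 and 3 of 49 adventitial-like cells.

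To compare the libraries, the log2 ratio of the sGC ∆PC level to the sGC Ctr level was taken per class, and members were set beside all genes of the class with at least 50 UMIs. Over all cells the *Dcn* level was 381.5 CPM in the sGC Ctr library and 384 CPM in the sGC ∆PC library. Over all fibroblasts, 4 of the 6 members compared (*Bgn*, *Ogn*, *Aspn* and *Prelp*) were at least 2-fold lower in the sGC ∆PC library, where 3.29% of all genes were and 1.76% were higher. *Dcn* was at 2953 and 1821 CPM (log2 ratio −0.70), *Lum* at 732 and 474 CPM (−0.63) and *Bgn* at 2075 and 1029 CPM (−1.01). *Ogn* was at 26.7 and 10.4 CPM (−1.37), *Aspn* at 57.0 and 21.8 CPM (−1.39) and *Prelp* at 74.6 and 29.5 CPM (−1.34). The median of the 6 members was −1.18 and that of all genes −0.08.

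The level of the family in a fibroblast moved with the cell's cancer-cell RNA share. *Dcn* was at 5107 CPM in sGC Ctr fibroblasts with a share under 10% and at 1007 CPM in those with a share of 100% or more. In the sGC ∆PC library it was at 5253 and 714 CPM in the same bins. *Bgn* went from 3724 to 529.7 CPM and from 3350 to 312 CPM. The sGC Ctr library had 115 fibroblasts under 10%, 27 between 50% and 100% and 15 at 100% or more. The sGC ∆PC library had 146, 357 and 152 of them, so the libraries differed in the makeup of the class. Values in low-share cells, given next, hold this share below 25% in each library.

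**Figure D4:**
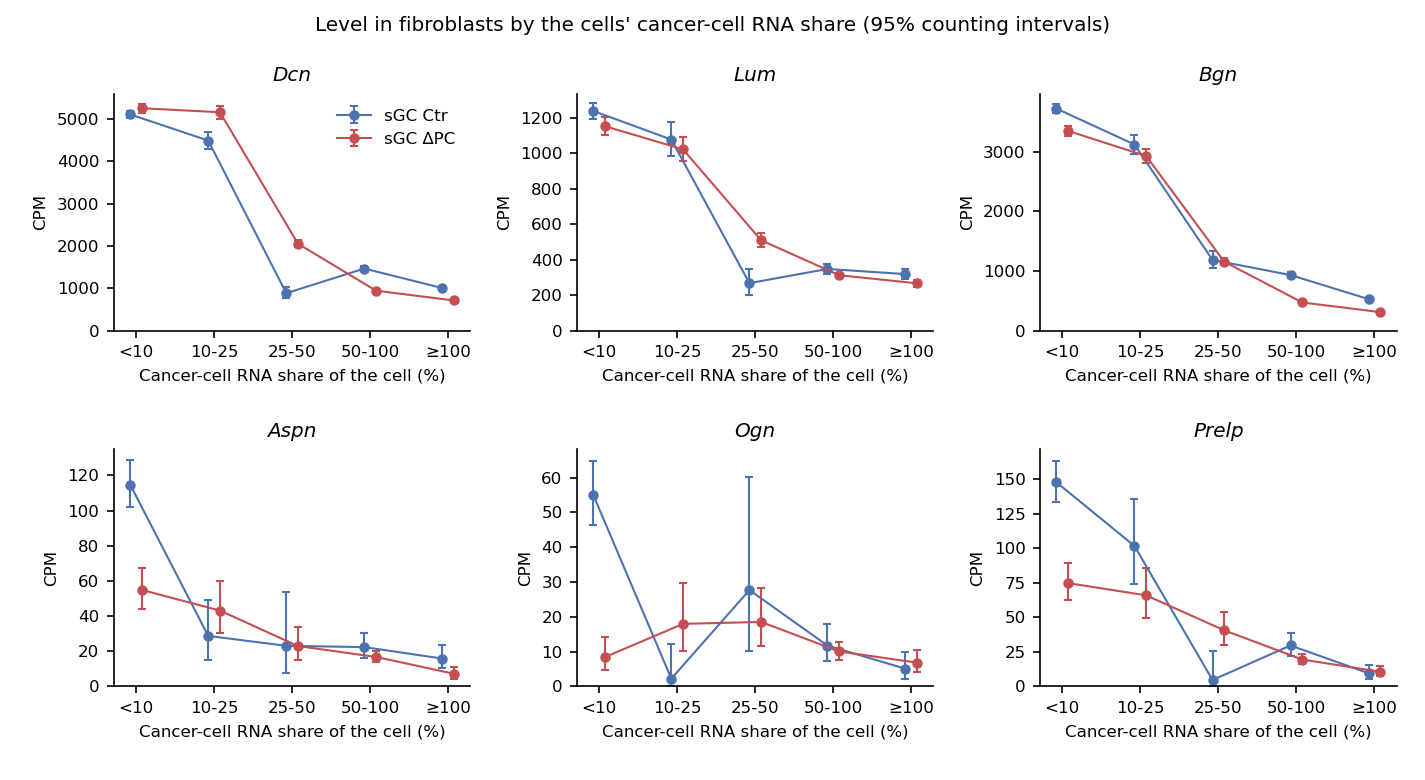
Level of the members (CPM) in fibroblasts grouped by the cell's cancer-cell RNA share (%), with 95% counting intervals, for the sGC Ctr and sGC ∆PC libraries. *Dcn* is at 5107 and 5253 CPM in the bin under 10% and at 1007 and 714 CPM in the bin of 100% or more.

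In low-share fibroblasts only *Ogn* of 6 members was at least 2-fold lower in the sGC ∆PC library, where 0.944% of all genes were and 1.22% were higher. The median of the members was −0.57 and that of all genes −0.03. *Dcn* (log2 ratio 0.06, 0.02 to 0.09), *Lum* (−0.13, −0.20 to −0.06) and *Bgn* (−0.18, −0.22 to −0.14) differed by at most 1.13-fold between the libraries. *Prelp*, with 422 and 179 UMIs, had a log2 ratio of −0.97 (−1.23 to −0.72), and *Aspn*, with 305 and 127 UMIs, a log2 ratio of −0.998 (−1.31 to −0.69), just inside the 2-fold limit. *Ogn* had 141 UMIs in 28 of 138 cells of the sGC Ctr library and 29 UMIs in 14 of 239 cells of the sGC ∆PC library, a log2 ratio of −2.02 (−2.65 to −1.43). *Fmod*, with 10 and 0 UMIs, of which 7 lay in 1 cell, and *Omd*, with 3 and 7 UMIs, were too sparse to compare. The macrophage markers were higher in these cells of the sGC ∆PC library, as given above, and their part in the ratios was not tested. The members summed to 1.02% and 0.967% of the UMIs of these cells. After thinning to 2000 UMIs, *Prelp* was found in 18.7% and 7.03% of the low-share fibroblasts (134 and 185 cells, with 4 and 54 left out), and *Ogn* in 5.97% and in 0 of 185 cells, which allows up to 1.62% of cells with an *Ogn* UMI at that depth and says nothing of cells that express it at a lower level. Unthinned, 14 of 239 of these cells had an *Ogn* UMI. In thinned T cells and granulocytes (352 and 528 cells, with 245 and 342 left out) *Prelp* was found in 0.284% and 0.189% of cells and *Ogn* in 1.14% and 0.189%. Median depth before thinning was 21086.5 and 4071 UMIs in the low-share fibroblasts and 2142 and 2303 UMIs in T cells and granulocytes. *Dcn* was found in 97.0% and 95.7% of them (unthinned, 134 of 138 and 217 of 239 cells).

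**Figure D5:**
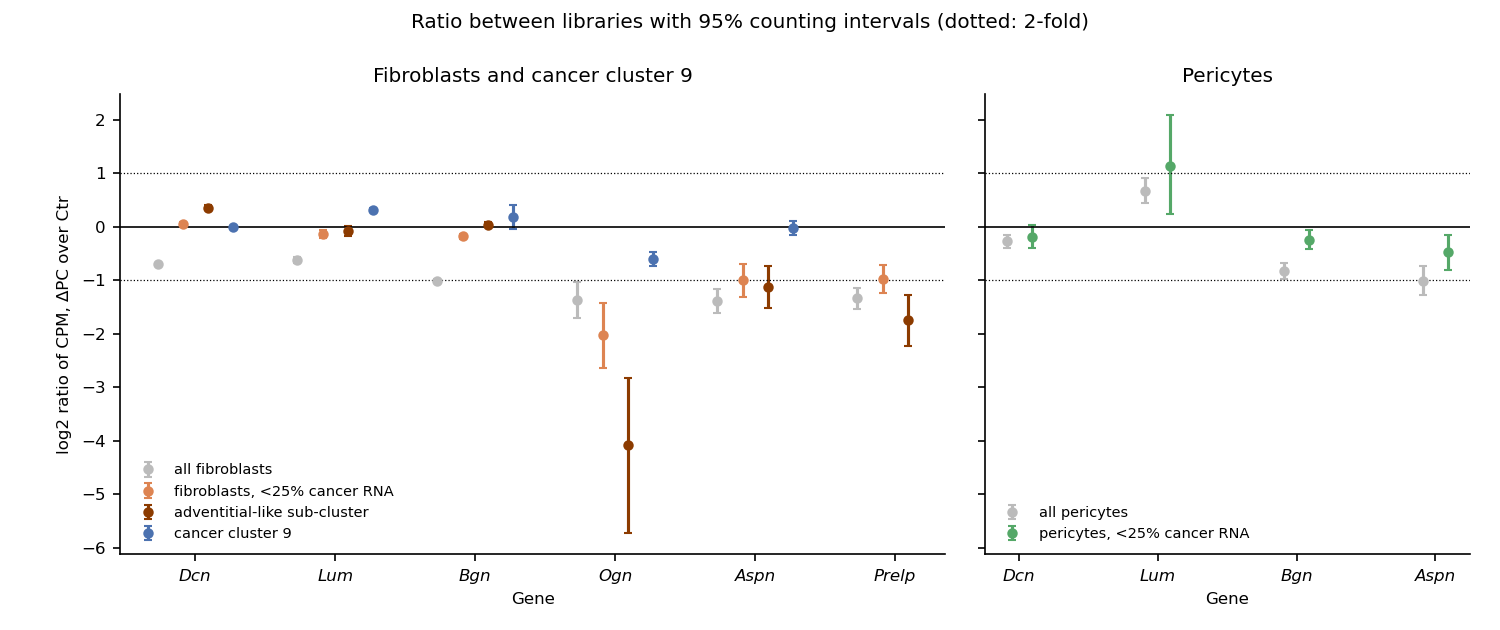
Log2 ratio of the sGC ∆PC level to the sGC Ctr level for each member with 95% counting intervals, in fibroblasts (all, low-share and adventitial-like) and the mesenchymal cancer cluster (left) and in pericytes (right). *Dcn*, *Lum* and *Bgn* lie near 0 in low-share fibroblasts, and *Ogn* is lowest in the adventitial-like cells, at −4.09.

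The makeup of the low-share fibroblasts also differed, since the adventitial-like sub-cluster was 50.7% of them in the sGC Ctr library and 20.5% in the sGC ∆PC library. Within that sub-cluster, where the median depth was close (19240 and 21014 UMIs), 3 of 6 members were at least 2-fold lower in the sGC ∆PC library (1.8% of all genes, with 0.978% higher). *Ogn* was at 83.6 CPM (120 UMIs in 20 of 70 cells) and 4.92 CPM (5 UMIs in 3 of 49 cells), a log2 ratio of −4.09 (−5.74 to −2.82). Without the cell of each library with most *Ogn* UMIs it was −4.51. That value rests on fewer than 5 sGC ∆PC UMIs and is given without an interval. *Prelp* was at 155 and 46.2 CPM, found in 35 of 70 and 18 of 49 cells (−1.74, −2.23 to −1.28), and *Aspn* at 158 and 72.8 CPM, found in 40 and 15 cells (−1.12, −1.52 to −0.74). *Dcn* was higher in the sGC ∆PC library (log2 ratio 0.36, 0.31 to 0.40, with cell medians of 5519 and 7175 CPM). *Lum* (−0.08) and *Bgn* (0.04) differed little. In the *Serpinb2* sub-cluster *Prelp* had a log2 ratio of −0.77, and in the sub-cluster with macrophage genes *Aspn* had a log2 ratio of −1.50, the 1 of 4 members that was at least 2-fold lower there (3.38% of genes, with 1.9% higher). In the other 4 sub-clusters 0 members differed by 2-fold. In those, 1.14% (*Serpinb2*), 4.87% (*Apoe*), 5.01% (contractile) and 3.52% (proliferating) of genes were lower and 1.17%, 10.8%, 1% and 3.84% higher.

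In low-share pericytes, 0 of the 3 members compared (*Dcn*, *Bgn* and *Aspn*) differed by 2-fold between the libraries, where 1.57% of all genes were lower and 1.49% higher in the sGC ∆PC library. The *Bgn* level was 1464 CPM (interval 1358 to 1576) in the sGC Ctr library and 1238 CPM (interval 1123 to 1362) in the sGC ∆PC library, with a log2 ratio of −0.24 (−0.42 to −0.07). The *Aspn* levels were 473 CPM (interval 413.5 to 538) and 340 CPM (interval 281 to 407), with a log2 ratio of −0.48 (−0.81 to −0.15). *Dcn* had a log2 ratio of −0.18, and of −2.31 without the cell of each library that held most of its UMIs. Over all pericytes *Aspn* was at 204 and 101 CPM (−1.01), the 1 of 4 members at least 2-fold lower (2.83% of genes, with 2.1% higher), and *Bgn* at 669 and 376 CPM (−0.83). The 10 macrophage markers summed to 237 and 1250 CPM in the low-share pericytes, and 9 of the 10 fibroblast markers were found there, at 2826 and 2813 CPM. The 4 smooth muscle markers summed to 4785 and 3738 CPM. The part of these marker lists in the ratios was not tested.

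In endothelial cells, the direction of the *Dcn* ratio differed between all cells and low-share cells. Over all 86 and 283 endothelial cells, *Dcn* (129 and 349 CPM, log2 ratio 1.44) and *Lum* (79.6 and 184 CPM, 1.21) were at least 2-fold higher in the sGC ∆PC library (3.64% of genes) and *Bgn* (78.4 and 15.1 CPM, −2.37) was lower (7.91% of genes). The cancer-cell RNA share of these cells was 23.8% and 71.6%. In the 67 and 70 low-share cells *Dcn* was at 65.2 and 33.0 CPM (−0.98), below its level in T cells and granulocytes. *Bgn* was at 109 and 36.3 CPM (−1.58), the 1 of 3 members at least 2-fold lower there (0.725% of genes), but 71.1% of its UMIs in the sGC Ctr library lay in 1 cell and the ratio was −0.59 without the top cell of each library. Of the 114 *Dcn* UMIs in low-share sGC Ctr cells, 91 lay in the 13 cells with a share of 10% to 25%. In the 54 cells of each library under 10%, *Dcn* was at 15.4 and 28.6 CPM, higher in the sGC ∆PC library. The turn in direction thus rests on few cells.

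In the mesenchymal cancer cluster 0 of 5 members (*Dcn*, *Lum*, *Bgn*, *Ogn* and *Aspn*) differed by 2-fold between the libraries, where 0.248% of genes were lower and 0.608% higher in the sGC ∆PC library. *Dcn* and *Aspn* (−0.02) had nearly the same level, *Lum* had a log2 ratio of 0.32 and *Ogn* a log2 ratio of −0.60 (−0.73 to −0.47). The *Ogn* ratio had an interval below 0 in 7 of the 11 cancer clusters, which all come from the same pair of libraries. The share of all genes with such an interval was not counted. Among these clusters *Ogn* was at 21.0 and 14.0 CPM in the *Kcnq1ot1* high cluster (−0.58) and at 16.4 and 11.8 CPM in the *Igfbp6* cluster (−0.48). It was at 11.2 and 8.39 CPM in a hypoxic cluster (−0.42) and at 6.39 and 5.05 CPM in a G2/M cluster. In the remaining clusters the interval included 0. The ratio was 0.42 in the *AY036118* cluster, 0.30 in the other G2/M cluster, 0.10 in the G1/S cluster and −0.002 in the other hypoxic cluster. In the *Cxcl10* cluster *Ogn* was at 23.5 and 11.0 CPM (−1.10) and *Aspn* at 23.2 and 7.31 CPM (−1.66), 2 of 5 members at least 2-fold lower (0.55% of genes, with 1.24% higher). In the other direction, *Bgn* (3.22 and 11.2 CPM, 1.80) and *Aspn* (1.22 and 3.45 CPM, 1.51) were at least 2-fold higher in a G2/M cluster (4.23% of genes, with 0.129% lower), close to or below the level of T cells and granulocytes. In the cluster led by *Rpgrip1* and *Slc24a5*, *Bgn* was the 1 of 5 members at least 2-fold higher (log2 ratio 1.09, 3.39% of genes, with 0.125% lower), and in the shallow *AY036118* cluster 3 of 4 members were, as were 32.3% of its genes, with 0.0855% lower. Median depth was 66586 and 10133 UMIs in that G2/M cluster and 77278 and 25037 UMIs in the *Rpgrip1* cluster. The part of depth in these ratios was not tested. In the remaining 6 cancer clusters 0 members differed by 2-fold. The share of genes at least 2-fold lower in the sGC ∆PC library was 0.137% in the *Kcnq1ot1* high cluster, 0.164% in the *Igfbp6* cluster, 0.156% in the other G2/M cluster, 0.129% and 0.138% in the hypoxic clusters and 0.222% in the G1/S cluster. The share of genes at least 2-fold higher was 0.58%, 3.85%, 0.618%, 2.26%, 2.56% and 0.765% in the same order. *Lum* was also at least 2-fold higher in T cells and granulocytes of the sGC ∆PC library (log2 ratio 1.06, 1 of 3 members, 1.56% of genes, with 1.04% lower). *Dcn* was higher there by less than 2-fold (0.88, 0.56 to 1.22), and *Bgn* was not separated by counting error (0.24, −0.48 to 0.99). The background levels of *Lum* and *Dcn* were thus unequal between the libraries. In macrophages *Ogn* was at 2.26 and 0.990 CPM, the 1 of 4 members at least 2-fold lower (0.278% of genes, with 0.608% higher). Both *Ogn* levels lie within the counting intervals of T cells and granulocytes (1.47 to 8.71 and 0.69 to 4.97 CPM, from 6 and 5 UMIs). They are thus not separated from the level of those shallower cells. In low-share macrophages, with 32 and 16 *Ogn* UMIs, the log2 ratio was −0.53.

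To place the members among other genes, their log2(CPM + 1) profiles over 60 class or cluster profiles were correlated with those of 14124 genes. The profiles share libraries, depth and free RNA, so the correlations are descriptions. *Dcn* and *Lum* were more like each other (Pearson r = 0.924) than like any gene other than the 8 members. The genes named next leave the members out. For *Dcn* this was *Col6a1* (0.916), and for *Lum* it was *Dpt*, dermatopontin, a partner of decorin in the matrix (0.911). *Bgn* was most like *Nbl1* (0.88), *Serping1* and *Postn* (both 0.87), and *Aspn* like *C1s1* (0.86) and *Pdgfrb* (0.81), the PDGF receptor of pericytes and fibroblasts. *Prelp* was most like *Ntrk2* (0.97) and *Dkk3* (0.94), followed by *Podn* (0.93), podocan, which is itself a small leucine-rich proteoglycan. *Ogn* was most like *Gm49504* (0.81) and *Sdc2* (0.80), with an r of only 0.16 with *Bgn* and 0.10 with *Prelp*. *Omd* was most like *Gm10501* (0.77), and *Fmod* had too few UMIs for this comparison.

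The other genes of the pathway were counted in low-share fibroblasts by lists that were read in full. Of 10 other small leucine-rich proteoglycan genes, 2 could be compared, *Podn* (57.7 and 30.5 CPM, −0.92) and *Tsku* (27.7 and 21.3 CPM, −0.38), and 0 differed by 2-fold. Of 25 genes that build the sulfated chains, 18 could be compared and 0 differed by 2-fold, with a median log2 ratio of −0.03. They include *Csgalnact1*, which starts chondroitin chains (140 and 144 CPM), *Dse* (71.7 and 62.2 CPM) and *Dsel* (97.7 and 98.3 CPM), which turn chondroitin into dermatan sulfate. Of 13 fibril partners compared, 2 were at least 2-fold lower in the sGC ∆PC library, as were 0.944% of all genes. They were *Col14a1*, a fibril-associated collagen that binds decorin (170 and 81.8 CPM, −1.06), and *Tnxb*, tenascin-X, which links fibrils (134 and 36.5 CPM, −1.88). *Col3a1* was at 21934 and 18916 CPM and *Col6a3* at 1360 and 1582 CPM. Of 7 proteases that cut matrix proteoglycans, 1 was at least 2-fold lower by the same count over all genes (0.944%), *Adamts5* (149 and 57.4 CPM, −1.38). Of 11 receptors and growth factors bound by the family 0 differed by 2-fold, and examples are *Lrp1* (760 and 716 CPM) and *Egfr* (118 and 105 CPM). In the mesenchymal cancer cluster 3 of 8 proteases were at least 2-fold higher in the sGC ∆PC library, as were 0.608% of all genes. They were *Mmp3* at 172 and 412 CPM (1.26) and, at low levels, *Mmp2* (0.969 and 2.75 CPM) and *Mmp13* (0.943 and 2.92 CPM). No chain assembly gene (of 19), fibril partner (of 12) or receptor (of 15) differed by 2-fold there.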

How the data were processed

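Tumors were digested with collagenase IV and dispase II, and libraries were made with a 10x 3′ kit (v3.1 per the labels, v3 in the study's methods). The authors deposited raw UMI counts per gene and barcode for each library, made with Cell Ranger 6.1.1 on mm10 per the labels. No normalization had been applied, and every count was used as deposited (0 columns of per-sample values were left unmapped). Barcodes with 10% or more mitochondrial UMIs were dropped, as were those whose UMI or gene number lay over 3 median absolute deviations from the median of their library. The filter on deviations removed cells from the sGC Ctr library only. Without it 13166 cells were kept there, 1480 of them under 2000 UMIs, against 12220 and 547 with it. The sGC ∆PC library kept 22498 cells, 3928 of them under 2000 UMIs, in either case. A cell with few UMIs gives a coarse value, and the depth of the libraries differed. Counts were scaled to 10000 per cell, and 3000 variable genes (18 small leucine-rich proteoglycan genes left out) were reduced to 20 components, joined by mutual nearest neighbors (20) and clustered with the Leiden method (15 neighbors, resolution 1). A cluster was named when at least 3 markers and 50% of a class's list each had a UMI in at least 25% of its cells and reached 25% of their level in the highest cluster. Low-share fibroblasts were clustered again (2000 genes, 15 components, resolution 0.5). Doublets were not removed in the main setting: Scrublet marked 520 barcodes in the sGC Ctr library and 0 of 22498 in the sGC ∆PC library, where it has not worked, so doublets there are untreated.

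UMIs were summed per class and library. Levels carry exact Poisson intervals, shares exact Clopper-Pearson intervals and ratios exact conditional intervals, all at 95% and for counting error only. With 1 library per condition no test was run. A difference of 2-fold was the call, read beside the share of all genes past it, among those with 50 or more UMIs over the pair of libraries. A count of 0 allows up to 3 counts. For single-cell shares, cells were thinned to 2000 UMIs and cells with fewer were left out. All 8 members are named throughout. The genes most like each member were the 3 genes, members left out, with the highest Pearson correlation (at least 200 UMIs, profiles of at least 20 cells), of which some are given. The pathway lists were read in full with up to 4 examples. The members and lists were chosen with earlier results of these data known. Scripts were tested on simulated data. Gene positions came from GENCODE on GRCm38 and promoters from RefSeq on GRCm38.p6, where 6 of the 8 members were matched. *Dcn* and *Lum* promoters are not given here. Alternatives covered the cell filters, the clustering, doublet removal, thinning, centring, the background level and the limit on cancer-cell RNA. Analyses used Python 3.11.15, numpy 2.4.6, scipy 1.17.1, pandas 2.3.3, scikit-learn 1.9.0, scanpy 1.11.5, igraph 0.11.9, leidenalg 0.10.2 and matplotlib 3.10.9.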

Additional observations from a re-analysis of the deposited data

How the results depend on the processing

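No paired analysis was possible because each condition had 1 library. The level of the family in fibroblasts depended most on which cells were counted. Its summed level was 5920 CPM in the sGC Ctr library, and 7700 CPM at Leiden resolution 2.0, 8441 CPM with cells thinned, 5749 CPM less the level in T cells and granulocytes, 6187 CPM with mitochondrial UMIs under 5% and 10153 CPM in low-share cells. In the sGC ∆PC library it was 3386 CPM, and 5808, 3882, 3074, 3865 and 9674 CPM under the same alternatives, with 3285 CPM when the family was kept in the clustering. The 4 members at least 2-fold lower over all fibroblasts became 1 in low-share cells, with or without thinning. The share of the family's UMIs in cancer cells was 81.3% and 75.0%, and it was 85.1% and 77.4% without called doublets, 76.7% and 64.3% with mitochondrial UMIs under 5%, 80.9% and 74.3% without the filter on depth and, in the sGC Ctr library, 81.6% at Leiden resolution 2.0. Of sGC ∆PC fibroblasts 92.8% had a *Dcn* UMI, and 82.1% with thinning and 90.8% in low-share cells. The sign of the ratio turned for *Bgn* in fibroblasts when only adventitial-like cells were used (a log2 ratio of 0.0412) and for *Dcn* in low-share endothelial cells (−0.98). It also turned for *Dcn* in pericytes with mitochondrial UMIs under 5% (0.22) and for *Dcn* in fibroblasts in low-share cells (0.06), in these without the top cells (0.05) and in adventitial-like cells (0.36). *Ogn* kept its sign in fibroblasts in 10 of 10 alternatives (−4.09 to −1.29), *Aspn* in 11 of 11 (−1.73 to −0.98), *Prelp* in 12 of 12 (−1.74 to −0.97) and *Dcn* in 9 of 12 (−1.06 to 0.36). The adventitial-like, top-cell and thinned low-share settings were chosen after seeing the data. The cause of these shifts was not tested. Fewer than 50 UMIs left *Fmod* and *Omd* outside most comparisons.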
